A study of Mus musculus with 36 samples.

Results

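The genes Eras, Slc27a2, Trim67, Foxi3, Upp1 and Lypd6 were followed through every library of a mouse embryonic stem cell series in which doxycycline (dox) switches on the mesoderm transcription factor Mesp1. They are 6 of 49671 gene identifiers counted, and were chosen by their measured counts because their RNA was far lower with dox than without it at 12 h or 24 h of differentiation. The values behind that choice are those of the dox and no dox libraries of batches 1 and 2, so those values are given as a description with no test. For the 6 genes, tests are given on 3 sets of libraries that the choice did not use, namely stem cells in 2i medium, libraries labelled Zic2 knockout, and cells sorted on day 4.

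Every library came from mouse stem cells that carry the dox-inducible Mesp1 transgene, and polyadenylated RNA was sequenced to 12126604 to 51940589 gene counts per library. Levels are CPM, counts scaled to a common gene total, so that 1 count stood for 0.0193 to 0.0825 CPM. The 36 libraries fell into these groups. Batch 1 had wild-type cells at 0 h without dox, at 12 h with and without dox and at 24 h with and without dox, with 2 libraries each. Batch 2 had wild-type cells at 24 h with dox (4 libraries), at 24 h without dox (2) and at 0 h without dox (2). Batch 3 had cells labelled Zic2 knockout (2) and wild-type cells (2), both at 24 h with dox. In 2i, where kinase inhibitors in the medium keep stem cells in a naive state, there were 2 wild-type libraries with dox and 2 without, titled 24 h. On day 4, wild-type cells were sorted as double positive for the receptors Flk1 and Pdgfra (5 libraries) or double negative (3), or were left unsorted (2). The growth record names hanging drops in serum for all libraries, 2i included. There is no dox library labelled as free of the transgene, so dox and Mesp1 as sources of an effect cannot be told apart. The titles of sorted libraries name no dox treatment, those of unsorted libraries carry an unexplained tag (ND), and replicates are not described as separate cultures.

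The labels held in the counts with 1 exception. Mesp1 stood at 183 and 348 CPM at 24 h with dox in batch 1, against 41.5 and 45.3 CPM without dox. In batch 2 it stood at 42.9 to 544 CPM with dox, against 0.808 and 1.5 CPM without. Kdr, which encodes Flk1, rose by 7.73 ± 0.40 (log2 fold change ± SE, edgeR adjusted p = 7.72e-05) in double positive over double negative cells. Zic2, the gene named in the knockout, was still counted at 73.0 and 56.4 CPM in the libraries labelled Zic2 knockout, against 108 and 74.7 CPM in wild type. Whether these reads lie outside a deleted stretch was not tested, since the labels do not give the deleted stretch. In batch 2, 158 genes above 16 CPM in batch 1 had no count in any library, and 0 of the 6 genes is among them.

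The genes have unlike jobs. Eras encodes a Ras-like GTPase of embryonic stem cells that is held in an active state and feeds the PI3 kinase pathway. Slc27a2 encodes a fatty acid transport protein that also joins very long chain fatty acids to coenzyme A, and Upp1 encodes uridine phosphorylase, which splits uridine into uracil and a sugar phosphate. Trim67 encodes a ubiquitin ligase of the class I TRIM family, best known in neurons, where its relative Trim9 and the netrin receptor Dcc act. Lypd6 encodes a small lipid-anchored protein of the Ly6 family that in zebrafish promotes Wnt signalling at the receptor Lrp6. Foxi3 encodes a forkhead transcription factor of the ectoderm that gives rise to placodes and of the pharyngeal arches. Mesp1 itself is a basic helix-loop-helix factor, a class of protein that binds short DNA words of the form CANNTG, called E-boxes, and in the embryo it marks the first mesoderm of the heart and head.

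The promoters of Eras and Slc27a2 are printed because these genes had the most similar profiles of the 6, and that of Trim67 because it holds no E-box. Each stretch runs from 250 bases before to 50 bases after the RefSeq start site, on build GRCm38.p6, 5′ to 3′ on the gene's strand, with every CANNTG in capitals. They are Eras at chrX:7928558-7928857 on the minus strand, Slc27a2 at chr2:126552774-126553073 on the plus strand and Trim67 at chr8:124792769-124793068 on the plus strand.
Eras: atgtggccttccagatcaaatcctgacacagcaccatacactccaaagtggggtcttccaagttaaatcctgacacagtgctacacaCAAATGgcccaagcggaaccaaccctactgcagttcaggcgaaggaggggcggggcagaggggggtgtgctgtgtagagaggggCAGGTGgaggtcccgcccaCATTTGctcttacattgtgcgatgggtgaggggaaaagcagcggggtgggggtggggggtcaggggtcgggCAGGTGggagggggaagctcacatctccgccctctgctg
Slc27a2: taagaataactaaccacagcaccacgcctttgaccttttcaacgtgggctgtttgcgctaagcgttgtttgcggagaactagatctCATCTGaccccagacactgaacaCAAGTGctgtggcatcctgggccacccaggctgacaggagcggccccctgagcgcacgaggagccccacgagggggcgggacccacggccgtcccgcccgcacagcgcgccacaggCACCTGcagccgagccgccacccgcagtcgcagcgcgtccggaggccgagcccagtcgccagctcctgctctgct
Trim67: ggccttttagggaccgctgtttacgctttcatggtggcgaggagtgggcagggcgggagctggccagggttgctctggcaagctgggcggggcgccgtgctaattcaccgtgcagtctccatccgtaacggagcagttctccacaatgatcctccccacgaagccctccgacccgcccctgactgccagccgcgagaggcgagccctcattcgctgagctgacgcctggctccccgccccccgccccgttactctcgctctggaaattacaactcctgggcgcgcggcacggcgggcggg

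The Eras promoter held 4 E-boxes, of which CAAATG began at position -163, CAGGTG at -79, CATTTG at -60 and a second CAGGTG at 12, counting the first transcribed base as 1 and the base before it as -1. CATTTG is CAAATG read on the other strand. Slc27a2 held 3, namely CATCTG at -164, CAAGTG at -141 and CACCTG at -25. Lypd6 held 1 (CACCTG), Foxi3 held 1 (CACATG), and the 3 RefSeq start sites of Upp1 held 1, 1 and 2. Searched on both strands, at least 1 CANNTG occurred in 72.3% of 32841 RefSeq promoters of this length, CAAATG in 13.7%, CATATG in 3.92%, CAGCTG in 16.3%, TATAAA in 13.6% and GGGCGG in 35.7%. Of the 6 genes, CAAATG was found in Eras alone, CAGCTG in Upp1 alone, TATAAA and CATATG in none, and GGGCGG in all. These are matches of letters, and the other words that start with CA and end with TG are forms of CANNTG and overlap with it.

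Eras (ENSMUSG00000031160) spans chromosome X from 7924276 to 7928607 on the minus strand of GRCm38. Batch 1 gave 8.08 and 9.5 CPM at 12 h with dox, against 47.6 and 41.1 CPM without dox. At 24 h it gave 1.24 and 1.22 CPM with dox, against 36.7 and 34.7 CPM without. The 4 dox libraries of batch 2 read 0.440, 1.86, 1.60 and 1.43 CPM, against 52.0 and 44.6 CPM without dox. Every dox library thus lay below every no dox library of its batch and time, and the 24 h no dox libraries of batch 1 were close to its 0 h libraries, at 35.9 and 30.9 CPM. This was a log2 fold change of -2.31 ± 0.31 (SE) at 12 h and -5.02 ± 0.23 at 24 h. Dox cells kept 19.8% of the no dox level at 12 h, and at 24 h 3.44% in batch 1 and 2.76% in batch 2. Of the exon bases of Eras, 12.5% overlap those of Pcsk1n on the other strand, and the use of strand in counting is not given in the sources used here.

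Slc27a2 (ENSMUSG00000027359, chromosome 2, 126552407 to 126588243, plus strand) ran almost in step with Eras. It read 23.4 and 15.8 CPM at 12 h with dox, against 105 and 87.1 CPM without. At 24 h batch 1 gave 1.17 and 1.05 CPM with dox, against 62.7 and 49.7 CPM without, and batch 2 gave 0.367, 4.05, 2.44 and 2.80 CPM with dox, against 64.8 and 64.7 CPM without. The groups did not overlap at either time, and the 24 h dox libraries were near the bottom of the whole series. On the log2 scale the difference was -2.27 ± 0.45 at 12 h and -5.00 ± 0.33 at 24 h. From 12 h to 24 h in dox the mean level dropped to 0.0568 of its 12 h value, whereas for Eras that ratio was 0.140. Gm26697 on the other strand shares 11.2% of its exon bases.

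Trim67 (ENSMUSG00000036913, chromosome 8, 124793092 to 124834713, plus strand) gave 9.91 and 12.1 CPM at 12 h with dox, against 44.0 and 65.4 CPM without. At 24 h it gave 0.473 and 1.05 CPM with dox in batch 1, against 48.3 and 70.0 CPM without. In batch 2 it gave 0.440, 4.85, 2.09 and 3.15 CPM with dox, against 46.7 and 58.1 CPM without. Dox libraries were again all below no dox libraries, but those of batch 2 were spread over a wider range. At 24 h the log2 fold change was -4.91 ± 0.48 over both batches, -6.58 in batch 1 and -4.31 in batch 2. Of the 6 genes it was the only one whose within-batch value left the pooled value by more than the spread between replicates.

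Foxi3 (ENSMUSG00000055874, chromosome 6, 70956531 to 70961066, plus strand) gave 2.85 and 3.39 CPM at 12 h with dox, against 14.7 and 19.4 CPM without. At 24 h batch 1 gave 0.248 and 0.730 CPM with dox, against 7.76 and 8.44 CPM without, and batch 2 gave 0.0734, 1.54, 0.766 and 0.972 CPM with dox, against 10.6 and 8.09 CPM without. The lowest of these is a single count. Foxi3 was also lower with time alone, at 8.71 ± 1.26 CPM (SD, n = 4) at 24 h without dox and 21.2 ± 6.33 CPM (SD, n = 4) at 0 h. The log2 fold change with dox was -2.43 ± 0.51 at 12 h and -3.76 ± 0.38 at 24 h.

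Upp1 (ENSMUSG00000020407, chromosome 11, 9118103 to 9136170, plus strand) differed from the other genes in its course without dox. Its level there was 47.3 ± 22.6 CPM (SD, n = 4) at 0 h, 76.5 and 73.8 CPM at 12 h, and 237 ± 6.92 CPM (SD, n = 4) at 24 h, a log2 difference of 2.27 ± 0.29 (SE) between 24 h and 0 h. With dox it gave 18.1 and 20.3 CPM at 12 h, and at 24 h 11.1 and 11 CPM in batch 1 and 22.5, 12.1, 11.6 and 8.24 CPM in batch 2. All dox libraries were below all no dox libraries of their time, and below the lowest 0 h library. The log2 fold change with dox was -1.95 ± 0.41 at 12 h and -4.26 ± 0.28 at 24 h, so most of the wider gap at 24 h lay in the higher no dox level. The 0 h and no dox libraries also entered the choice of genes, so this course is a description.

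Lypd6 (ENSMUSG00000050447, chromosome 2, 50066429 to 50193569, plus strand) reached its low level early. It gave 3.82 and 5.01 CPM at 12 h with dox, against 25.9 and 24.8 CPM without. At 24 h batch 1 gave 5.43 and 4.22 CPM with dox, against 17.1 and 13.5 CPM without, and batch 2 gave 3.3, 3.8, 4.39 and 2.63 CPM with dox, against 15.7 and 16.1 CPM without. The 12 h and 24 h dox libraries overlapped, with a mean at 24 h that was 1.09 of that at 12 h in batch 1, while the other 5 genes stood at 0.0568 to 0.574 of theirs. With dox the log2 fold change was -2.50 ± 0.27 at 12 h and -1.94 ± 0.17 at 24 h. Lypd6 kept 31.5% of the no dox level at 24 h in batch 1 and 22.2% in batch 2, more than any of the other 5.

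**Figure D1:**
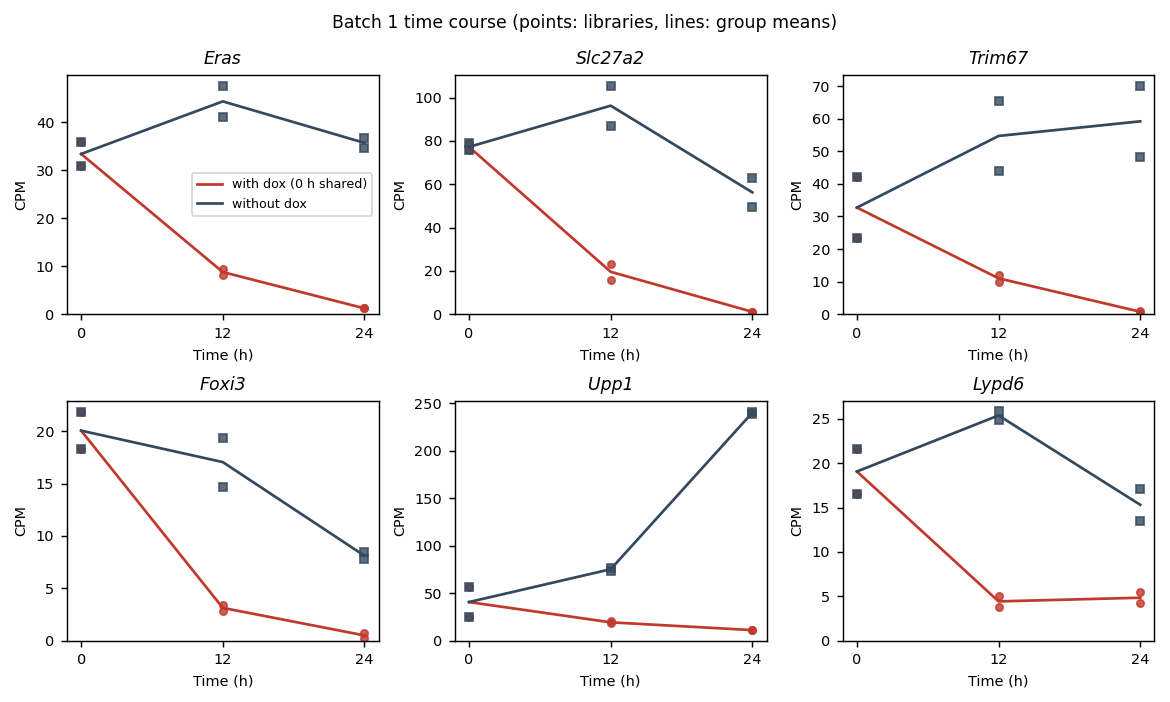
CPM (linear axis) of the 6 genes in batch 1 at 0 h, 12 h and 24 h, with dox (red circles) and without (dark squares); points are libraries, lines join group means, and both lines share the 0 h libraries. Upp1 climbs to 239 and 241 CPM without dox, Lypd6 is as low at 12 h as at 24 h with dox, and the others are lower at 24 h than at 12 h with dox.

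Over all genes tested in batches 1 and 2, edgeR called 5.66% at 12 h of dox (2.37% lower and 3.29% higher) and 30% at 24 h (14.6% lower and 15.4% higher). All 6 genes were below every no dox library of the batch at both times, as were 21.6% of all genes tested at 12 h and 14.3% at 24 h. Their choice implies this, and nothing is read from that count. The lowest value of Eras, Slc27a2, Trim67 and Foxi3 in batch 2 was in the same dox library, replicate 1, which also had the highest Mesp1 level of the 4, 544 CPM against 209, 42.9 and 95.2 CPM in the others. Upp1 was highest in that library. Replicate 2 had the next highest Mesp1 level, 209 CPM. Yet it held the highest values of Eras, Slc27a2, Trim67 and Foxi3, at 1.86, 4.05, 4.85 and 1.54 CPM. Without dox at 24 h, Mesp1 was at 41.5 and 45.3 CPM in batch 1 and 0.808 and 1.5 CPM in batch 2. Each of the 6 genes differed by less than 2-fold between any pair of these libraries. They also differ in batch and entered the choice of genes, and a link of the genes to the Mesp1 level was not tested. The libraries are bulk samples, in which fewer cells of a type and less RNA per cell cannot be told apart. Summed primed epiblast markers (7 of 7 genes counted) moved the same way, with 748 to 990 CPM at 24 h with dox in batch 1 against 2147 to 2595 CPM without, and so did primitive streak (8 of 8, 119 to 136 CPM against 1538 to 1679 CPM without dox), definitive endoderm (6 of 6, 62.6 to 80.9 CPM against 437 CPM in both) and naive markers (15 of 15, 440 to 476 CPM against 1731 to 1778 CPM). The mesoderm marker list (12 of 12) includes the induced Mesp1. Its sum moved the opposite way, with 1709 to 1876 CPM with dox against 320 to 376 CPM without. The part of all these markers in the low values was not tested.

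**Figure D2:**
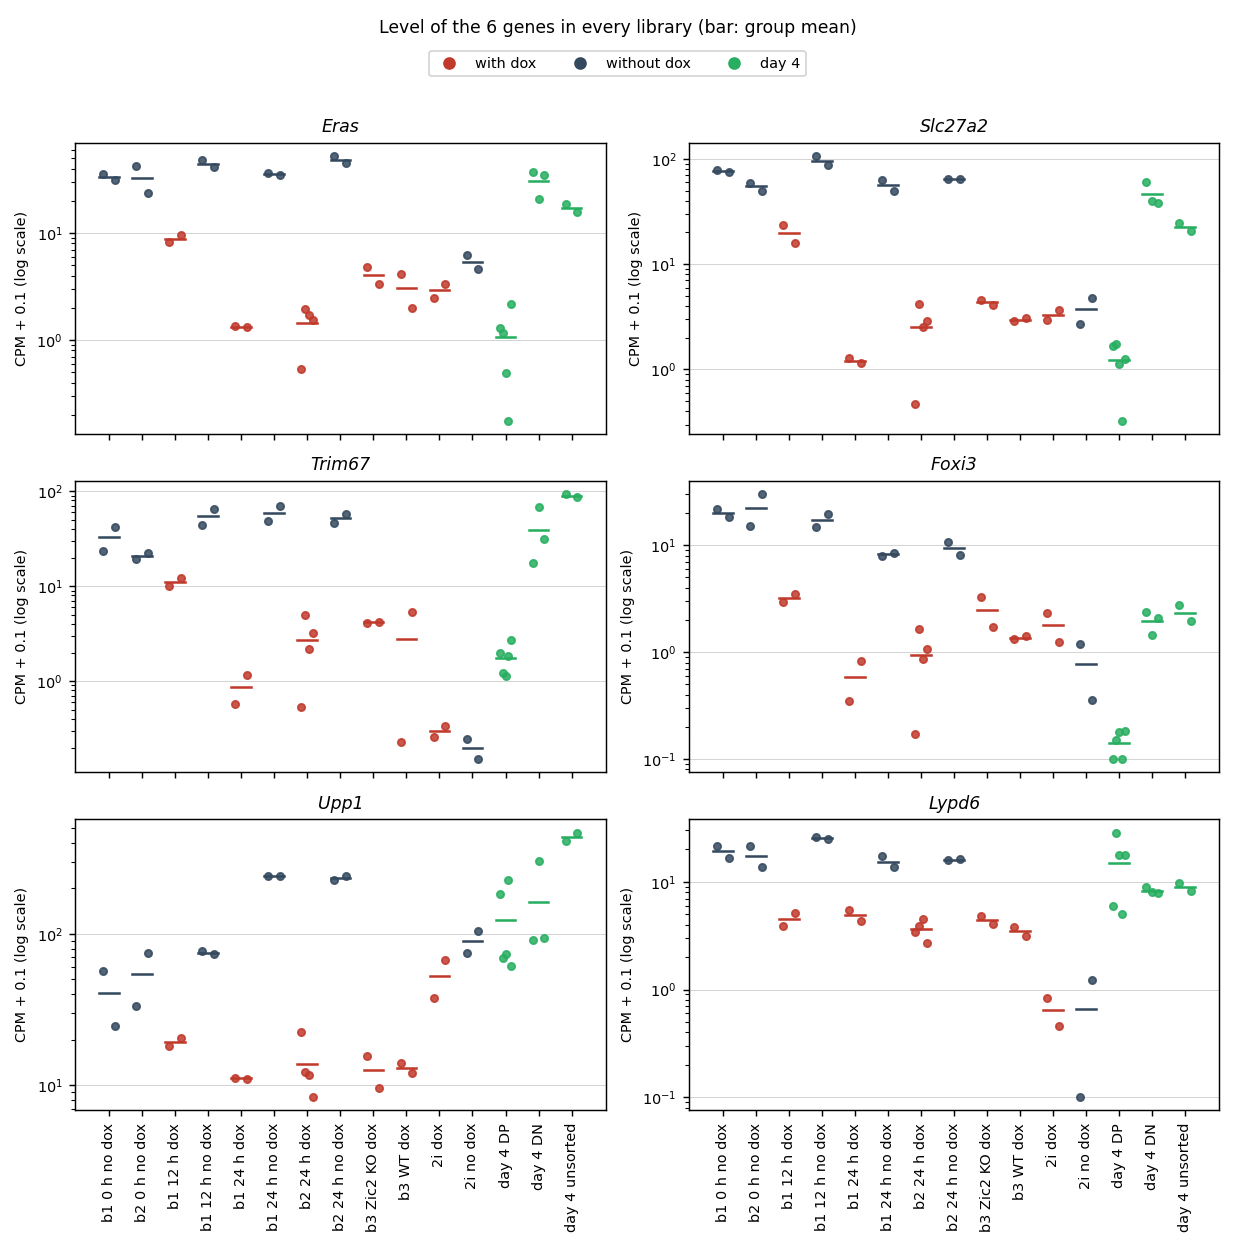
CPM + 0.1 (log axis) of each gene in all 36 libraries by group; b1 to b3 are batches 1 to 3, DP is double positive, DN double negative, KO the libraries labelled knockout, and bars are group means. Eras, Slc27a2, Trim67 and Foxi3 are low in dox and double positive libraries, and Upp1 and Lypd6 are spread widely over the double positive libraries, at 61.4 to 227 and 4.94 to 28.6 CPM.

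The order of group means differed between the genes. Eras was highest in batch 2 at 24 h without dox (48.3 CPM), which overlapped batch 1 at 12 h without dox (44.4 CPM), and lowest in double positive cells (0.956 CPM), which overlapped batch 1 at 24 h with dox (1.23 CPM). Slc27a2 was highest in batch 1 at 12 h without dox (96.2 CPM), above every library of the next group, and lowest in batch 1 at 24 h with dox (1.11 CPM), which overlapped double positive cells (1.13 CPM). Foxi3 was highest at 0 h (22.3 CPM in batch 2 and 20.1 CPM in batch 1, which overlapped) and lowest in double positive cells (0.0424 CPM), where every library was below those of batch 1 at 24 h with dox (0.489 CPM) but not below the lowest of batch 2 at 24 h with dox. Trim67 and Upp1 were highest in unsorted day 4 cells, at 89.3 and 438 CPM, with no overlap with the next group. Trim67 was lowest in 2i (0.198 CPM with dox and 0.0983 CPM without), whereas Upp1 in 2i (52.2 CPM with dox and 89.7 CPM without) was within the range of the 0 h libraries or above it. Lypd6 was highest in batch 1 at 12 h without dox (25.4 CPM), with no overlap with 0 h, and lowest in 2i (0.544 CPM with dox and 0.562 CPM without, which overlapped). Per kilobase of exon, the mean level at 12 h without dox was 41.2 CPM for Eras, 38.3 for Upp1, 25.6 for Slc27a2, 13.3 for Foxi3, 6.81 for Lypd6 and 6.25 for Trim67.

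Dox in 2i asked whether the genes respond when Mesp1 is induced in naive stem cells. Eras gave 2.39 and 3.24 CPM with dox, against 6.11 and 4.49 CPM without, and Upp1 gave 37.4 and 67.0 CPM with dox, against 74.3 and 105 CPM without. For both genes the dox libraries lay below the no dox libraries, but by a margin of 1.39-fold for Eras and 1.11-fold for Upp1 between the nearest libraries. Of all genes tested, 8.23% were lower in both dox libraries than in both others, and 16.5% were higher. The log2 fold change was -0.96 ± 0.37 for Eras and -0.82 ± 0.33 for Upp1 (edgeR adjusted p = 1.00 for each). Slc27a2 gave 2.86 and 3.54 CPM with dox, against 2.62 and 4.65 CPM without (-0.23 ± 0.41), and Lypd6 gave 0.728 and 0.360 CPM, against 0 and 1.12 CPM (-0.14 ± 1.37), with overlap in both genes. Foxi3 read 2.23 and 1.14 CPM with dox, against 1.09 and 0.255 CPM without (1.31 ± 0.83, edgeR adjusted p = 1.00), so that it was higher in both dox libraries. Without no dox replicate 1 this log2 value was 2.67, and without replicate 2 it was 0.55. Trim67 had 1 to 4 counts per library and did not pass the filter on low counts, which 5 of the 6 genes passed. Mean levels in 2i without dox were 3.63 CPM for Slc27a2, 0.0983 for Trim67, 0.562 for Lypd6 and 0.674 for Foxi3. At 24 h with dox in batches 1 and 2 they were 1.98, 2.01, 3.96 and 0.721 CPM. The mean in 2i without dox was thus above that at 24 h with dox for Slc27a2. For Foxi3 the 2 means were close, and for Trim67 and Lypd6 the mean in 2i was the lower. The part of these starting levels in the 2i result was not tested.

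edgeR called 0 of the 18534 genes tested in 2i, which is 0% of them, and 385 had an unadjusted p below 0.05, while DESeq2 called 46. Mesp1 read 85.4 and 119 CPM with dox against 1.09 and 0.613 CPM without, and was itself not called (6.90 ± 0.36, edgeR adjusted p = 0.146). Summed naive markers (15 of 15 genes counted) were at 7321 to 8529 CPM with dox and 7129 to 7258 CPM without, and primed epiblast markers at 222 to 254 CPM and 176 to 210 CPM.

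The libraries labelled Zic2 knockout asked whether the genes stay low under dox when the transcription factor Zic2 is targeted. None of the 6 genes passed the test. Eras gave 4.70 and 3.22 CPM in the libraries labelled Zic2 knockout, against 4.06 and 1.89 CPM in wild type, and Upp1 gave 15.4 and 9.48 CPM, against 13.9 and 11.9 CPM. Both overlapped. Slc27a2 gave 4.51 and 4.00 CPM against 2.77 and 2.97 CPM in wild type, Lypd6 gave 4.70 and 4.00 CPM against 3.67 and 3.05 CPM, and Foxi3 gave 3.19 and 1.61 CPM against 1.22 and 1.31 CPM. These 3 genes were higher in both libraries labelled Zic2 knockout, by log2 fold changes of 0.57 ± 0.29, 0.37 ± 0.30 and 0.93 ± 0.46, as were 15.6% of all genes tested. Trim67 gave 4.01 and 4.13 CPM against 0.129 and 5.22 CPM, where the wild-type pair itself lay far apart. The edgeR adjusted p was 1.00 for each of the 6, and edgeR called 0% of 16518 genes in all. Of all genes 390 had an unadjusted p below 0.05, and DESeq2 called 5. Mesp1 was at 84.5 and 109 CPM in the libraries labelled Zic2 knockout and 120 and 248 CPM in wild type. Summed primitive streak markers (8 of 8) were at 515 to 586 CPM in the libraries labelled Zic2 knockout against 213 to 509 CPM in wild type, primed epiblast markers (7 of 7) at 1467 to 1503 CPM against 1267 to 1416 CPM, and mesoderm markers (12 of 12) at 805 to 897 CPM against 931 to 1129 CPM. The mesoderm sum includes Mesp1. The part of Mesp1 and of these markers in the differences was not tested.

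On day 4, double positive cells were set against double negative cells to ask which genes part precursors that carry both mesoderm receptors from cells that carry neither. Of the 6 genes, 4 (Eras, Slc27a2, Trim67 and Foxi3) were far lower in double positive cells, where Foxi3 had at most 1 count per library. Eras gave 0.395, 0.0748 and 2.06 CPM in double positive replicates 3 to 5, against 37.2, 20.8 and 34.6 CPM in double negative replicates 3 to 5. Slc27a2 gave 1.03, 0.224 and 1.15 CPM, against 60.7, 39.8 and 38.2 CPM in double negative cells. Trim67 gave 1.03, 1.72 and 2.64 CPM, against 17.5, 68.6 and 31.6 CPM in double negative cells. In none of these genes did the groups overlap, where 24.9% of all genes tested were lower in all 3 double positive libraries than in all 3 double negative ones. The double positive replicates 1 and 2, which the test did not use, lay at the same low level, with 1.19 and 1.06 CPM for Eras, 1.59 and 1.66 CPM for Slc27a2 and 1.87 and 1.11 CPM for Trim67.

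Foxi3 had 1, 0 and 1 counts in double positive replicates 3 to 5 and 31, 17 and 26 counts in double negative replicates 3 to 5. The ratio of the 2 sums, scaled by depth, was 2.79% with a 95% exact interval of 0.331% to 10.4%, which covers counting error only. Over all 5 double positive libraries Foxi3 averaged 0.0424 CPM, against 1.87 CPM in double negative cells.

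The log2 fold change, double positive over double negative, was -5.18 ± 0.67 for Eras (edgeR adjusted p = 0.00178), -5.82 ± 0.40 for Slc27a2 (0.000174), -4.43 ± 0.62 for Trim67 (0.00246) and -4.89 ± 0.58 for Foxi3 (0.00102). Without double positive replicate 5 the value of Eras was -6.97, and without double negative replicate 4 that of Trim67 was -3.74, both still called. The fit, in which replicates were not paired, called these 4 of 6 genes lower. Of the 16868 genes tested, 25.6% were called, 16.2% lower and 9.41% higher. Definitive endoderm markers (6 of 6 counted) summed to 72.7 to 111 CPM in double positive cells, against 924 to 1021 CPM in double negative cells, primed epiblast markers to 695 to 802 CPM, against 1551 to 2026 CPM, and surface ectoderm markers (6 of 6) to 156 to 383 CPM, against 795 to 1239 CPM. Mesoderm markers summed to 2039 to 2598 CPM in double positive cells, against 140 to 145 CPM in double negative cells. The sums of naive markers overlapped between the groups, at 574 to 1571 CPM in double positive and 530 to 1220 CPM in double negative cells. So did those of primitive streak markers, at 512 to 1873 CPM against 795 to 1552 CPM. Gene by gene, 9 of 12 naive markers tested were called lower in double positive cells and 2 higher (75% and 16.7%). Their median log2 fold change was -2.05. Of 8 primitive streak markers, 3 were called lower and 0 higher. The part of these cell types in the result was not tested.

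Upp1 and Lypd6 were not called in this unpaired fit. Upp1 gave 73.4, 227 and 61.4 CPM in double positive replicates 3 to 5, against 90.9, 302 and 93.4 CPM in double negative ones. The groups overlapped because replicate 4 was the highest of both, and within each replicate number the double positive library was the lower. Its log2 fold change was -0.41 ± 0.65 (edgeR adjusted p = 0.697), and -0.41 with the replicate number as a block, where it passed (edgeR adjusted p = 0.00305). The numbers pair these libraries, and the same fit called 7254 genes in place of 4318. Lypd6 gave 17.5, 4.94 and 17.8 CPM in double positive cells, against 8.79, 7.91 and 7.83 CPM in double negative cells, above in replicates 3 and 5 and below in replicate 4. Its log2 fold change was 0.74 ± 0.44 (edgeR adjusted p = 0.265), and 1.13 without double positive replicate 4 (edgeR adjusted p = 0.00145).

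**Figure D3:**
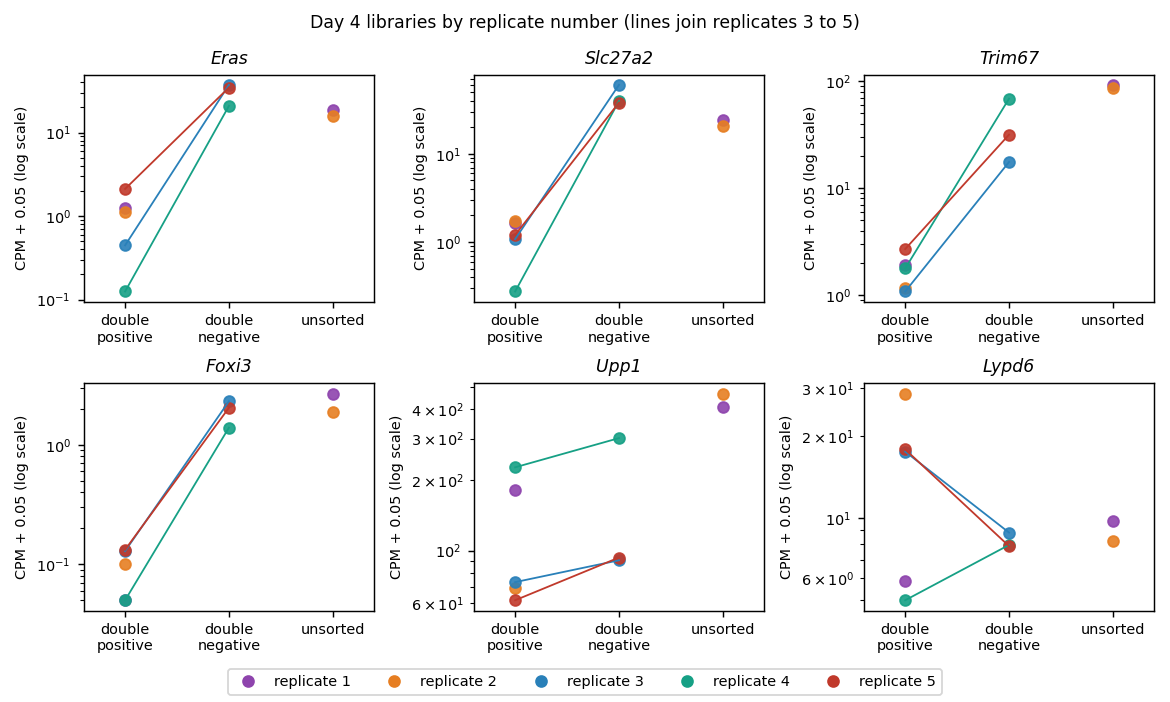
CPM + 0.05 (log axis) of each gene in the day 4 libraries, double positive, double negative and unsorted, coloured by replicate number, with lines joining replicates 3 to 5. Eras, Slc27a2, Trim67 and Foxi3 are lower in every double positive library, Upp1 is highest in unsorted libraries (408 and 467 CPM), and double positive replicates 1 and 4 share high Upp1 and low Lypd6.

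The 5 double positive libraries were spread widely for both genes. Replicates 1 and 4 had Upp1 at 182 and 227 CPM and Lypd6 at 5.84 and 4.94 CPM. Replicates 2, 3 and 5 had Upp1 at 69.3, 73.4 and 61.4 CPM and Lypd6 at 28.6, 17.5 and 17.8 CPM. Double negative replicate 4 also had the highest Upp1 of its group, and its Lypd6 (7.91 CPM) was within the range of the others.

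Against unsorted cells, double positive replicates 1 and 2 gave 1.19 and 1.06 CPM of Eras, against 18.7 and 15.5 CPM in unsorted cells. Slc27a2 gave 1.59 and 1.66 CPM, against 24.3 and 20.7 CPM, and Trim67 gave 1.87 and 1.11 CPM, against 92.4 and 86.2 CPM. Foxi3 had 0 and 1 counts in double positive cells and 137 and 93 counts in unsorted cells, a ratio of 1.18% with a 95% exact interval of 0.0299% to 6.66%. None of these 4 genes overlapped between the groups, where 51.2% of all genes tested were lower in both double positive libraries. The log2 fold change was -3.77 ± 0.20 for Eras (edgeR adjusted p = 7.81e-05), -3.63 ± 0.17 for Slc27a2 (4.79e-05), -5.76 ± 0.21 for Trim67 (1.9e-05) and -6.07 ± 0.68 for Foxi3 (0.00131). The value for Foxi3 was -5.27 without double positive replicate 1 and -9.47 without replicate 2, which leaves 0 counts in double positive cells, so that this fitted value is no bound. Upp1, with 182 and 69.3 CPM against 408 and 467 CPM in unsorted cells, fell by 1.63 ± 0.49 on the log2 scale (edgeR adjusted p = 0.0477). That call was lost without either unsorted library (edgeR adjusted p = 0.374 and 0.409) and with double positive replicates 3 to 5 in place of 1 and 2 (-1.73, 0.0545). Lypd6 read 5.84 and 28.6 CPM against 9.68 and 8.16 CPM in unsorted cells (1.10 ± 0.72, edgeR adjusted p = 0.257), on either side of them. Its log2 fold change was -0.43 without double positive replicate 2 and 1.81 without replicate 1. In all, 5 of 6 genes were called lower, where 51.7% of 19350 genes were called, 28.8% lower and 22.9% higher. Definitive endoderm markers summed to 75.8 to 111 CPM in these double positive libraries, against 387 to 462 CPM in unsorted cells, primed epiblast markers to 638 to 835 CPM, against 1691 to 1904 CPM, and primitive streak markers to 491 to 1274 CPM, against 2391 to 2500 CPM. Naive markers summed to 659 to 1387 CPM, against 1686 to 1691 CPM in unsorted cells. Of these 15 markers, 11 were called lower in double positive cells and 2 higher. Surface ectoderm markers (221 to 383 CPM against 285 to 322 CPM) overlapped between these groups. Mesoderm markers, with the sorted-for Kdr and Pdgfra again included, summed to 1808 to 2106 CPM, against 371 to 547 CPM in unsorted cells. The part of these cell types was not tested.

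Unsorted cells did not lie between the sorted groups for every gene. Eras and Slc27a2 in unsorted cells were above every double positive and below every double negative library. Trim67 at 92.4 and 86.2 CPM, and Upp1 at 408 and 467 CPM, were above every sorted library, of which the highest were 68.6 CPM for Trim67 and 302 CPM for Upp1, both in double negative replicate 4. Single positive cells were not analysed here, and whether the titles' tag marks a difference in treatment cannot be told apart from the sort.

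**Figure D4:**
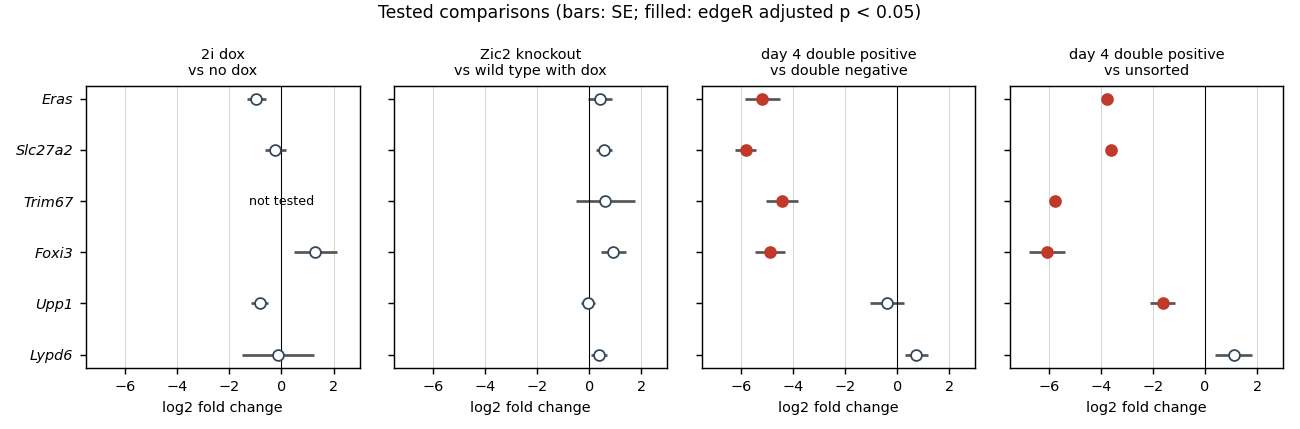
Log2 fold change (linear axis, bars are SE) of the 6 genes in the 4 tested comparisons, filled where the edgeR adjusted p was below 0.05. The fits did not pair replicates. No gene is filled in 2i or for the libraries labelled Zic2 knockout. For double positive over double negative 4 are filled, and 5 for double positive over unsorted, and Trim67 was not tested in 2i.

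The profile across all 36 libraries (Pearson r of log2 CPM, a description with no p, since libraries share batches, dox treatment and depth) set Eras and Slc27a2 closest, at r = 0.97. Eras with Foxi3 had r = 0.86, Slc27a2 with Foxi3 0.88, and Slc27a2 with Trim67 0.83. Upp1 was the least like the others, with r from 0.09 for Foxi3 to 0.46 for Trim67, and Lypd6 with Upp1 had 0.27. Among 16371 genes with a mean of at least 1 CPM, the 3 most like Eras were Marveld3 (0.98), a tight junction protein gene, Slc27a2, and Slain1 (0.96), a microtubule protein gene. Marveld3 and Rab25 (0.96), an epithelial membrane traffic gene, stood beside Eras for Slc27a2 (0.97 for Marveld3). For Trim67 they were Gbp2 (0.93), Ppp1r14c (0.93) and Ppp4r4 (0.92), for Foxi3 Enpp3 (0.95), Bst2 (0.94) and Ramp3 (0.94), and for Lypd6 Cgnl1 (0.95), which encodes a cell junction protein, Fbxo32 (0.91) and Ldb2 (0.89).

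The gene most like Upp1 was Hus1 (0.91), a DNA damage checkpoint gene, followed by Mycl (0.84) and Tapbp (0.81). Hus1 lies 106911 bases before Upp1 on chromosome 11 (8993137 to 9011191), and whether other genes lie between them was not checked. Hus1 varied far less in size. It was at 39.1 and 49.3 CPM at 24 h with dox in batch 1, against 65.3 and 77.9 CPM without, and at 77.1 and 79.7 CPM in unsorted day 4 cells.

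The pathway partners of each gene were counted from lists chosen with results of these data known, and they describe surroundings of the genes. Their shares are set beside those of all genes tested, of which 9.41% rose and 16.2% fell in double positive over double negative cells, 15.4% and 14.6% at 24 h of dox, 22.9% and 28.8% against unsorted cells, and 3.29% and 2.37% at 12 h of dox. In the Ras and PI3 kinase list beside Eras, 2 of 16 tested genes rose and 3 fell in double positive over double negative cells (12.5% and 18.8%, near the shares of all genes), with a median log2 fold change of 0.04 against 0.01 over all genes. The PI3 kinase catalytic subunit genes Pik3cd (-2.42 ± 0.38, edgeR adjusted p = 0.00331) and Pik3cb (-2.31 ± 0.24, 0.000662) fell. At 24 h of dox 3 rose and 4 fell, among them Mras, a Ras relative that rose by 2.13 ± 0.26 (edgeR adjusted p = 5.96e-06). Against unsorted cells 5 rose and 4 fell, which is 31.2% and 25% of the list.

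Of the fatty acid genes beside Slc27a2, 0 of 20 rose and 7 fell in double positive over double negative cells (0% and 35%, against 9.41% and 16.2% of all genes), with a median of -0.25. Cd36, a fatty acid receptor gene, fell by 5.00 ± 0.58 (edgeR adjusted p = 0.000907), and Cpt1a, the entry enzyme of mitochondrial fatty acid oxidation, by 1.80 ± 0.34 (0.00728). At 24 h of dox 3 of 20 rose and 7 fell (15% and 35%, against 15.4% and 14.6%), with Cpt1a at -2.44 ± 0.36 (edgeR adjusted p = 4.48e-05) and Slc27a6, a fatty acid transporter gene, at 2.41 ± 0.42 (0.000245). Against unsorted cells 4 rose and 4 fell (20% each, against 22.9% and 28.8%).

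Of the uridine and pyrimidine genes beside Upp1, 1 of 13 rose and 4 fell in double positive over double negative cells (7.69% and 30.8%, against 9.41% and 16.2% of all genes), with a median of 0.09. Dpyd, which breaks down uracil, fell by 2.95 ± 0.42 (edgeR adjusted p = 0.00241) and Cda, cytidine deaminase, by 2.52 ± 0.44 (0.00492). At 24 h of dox 1 of 17 rose and 7 fell (5.88% and 41.2%, against 15.4% and 14.6%), and there Dpyd was the riser, by 1.27 ± 0.32 (edgeR adjusted p = 0.00573), while Cda fell by 2.32 ± 0.31 (1.85e-05). Against unsorted cells 2 of 17 rose and 7 fell (11.8% and 41.2%, against 22.9% and 28.8%).

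Of the class I TRIM and netrin receptor genes beside Trim67, 3 of 9 rose and 2 fell in double positive over double negative cells (33.3% and 22.2%, against 9.41% and 16.2% of all genes), with a median of 0.35. Trim9, its nearest listed relative, rose by 3.91 ± 0.62 (edgeR adjusted p = 0.00391) and Unc5c, a netrin receptor gene, by 6.14 ± 0.97 (0.00397), and Ntn1, which encodes netrin, fell by 3.77 ± 0.41 (0.000906). At 24 h of dox 3 rose and 2 fell (33.3% and 22.2%, against 15.4% and 14.6%), and Trim9 (1.64 ± 0.47, edgeR adjusted p = 0.0126) and Unc5c (5.12 ± 0.37, 2.36e-08) rose there too. Against unsorted cells 4 rose and 3 fell (44.4% and 33.3%, against 22.9% and 28.8%).

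Of the preplacodal genes beside Foxi3, 0 of 9 rose and 5 fell in double positive over double negative cells (0% and 55.6%, against 9.41% and 16.2% of all genes), with a median of -1.96. They included Eya2, a transcriptional coactivator gene of placodes (-4.46 ± 0.55, edgeR adjusted p = 0.0015). At 24 h of dox 6 of 10 rose and 1 fell (60% and 10%, against 15.4% and 14.6%), with a median of 1.52 against 0.02 over all genes. Irx1, a homeobox gene, rose by 4.57 ± 0.58 (edgeR adjusted p = 9.87e-06). Foxi3 itself was low in both comparisons. Against unsorted cells 1 of 11 rose and 4 fell (9.09% and 36.4%, against 22.9% and 28.8%).

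Of the Ly6 family and Wnt receptor genes beside Lypd6, 1 of 11 rose and 5 fell in double positive over double negative cells (9.09% and 45.5%, against 9.41% and 16.2% of all genes), with a median of -0.57. At 24 h of dox 2 of 13 rose and 6 fell (15.4% and 46.2%, against 15.4% and 14.6%). Fzd8, a Wnt receptor gene, fell by 3.82 ± 0.45 (edgeR adjusted p = 0.00126) and 2.13 ± 0.21 (8.29e-07), and Fzd7 rose by 0.91 ± 0.20 (0.0145) and 0.95 ± 0.15 (0.000103). Against unsorted cells 2 of 13 rose and 7 fell (15.4% and 53.8%, against 22.9% and 28.8%). At 12 h of dox, calls in the 6 lists came to 2 lower for Eras, 0 for Upp1, 0 for Slc27a2, 2 higher and 1 lower for Trim67, 1 lower for Lypd6 and 2 higher for Foxi3. None was called in 2i or for the libraries labelled Zic2 knockout.

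Lypd6b, a relative of Lypd6, lies 117579 bases before it on chromosome 2 (49787688 to 49948849, ENSMUSG00000026765), and its values are set beside those of Lypd6. At 24 h Lypd6b gave 0.113 and 0 CPM with dox in batch 1, against 9.33 and 8.80 CPM without, and 0.0734 to 0.324 CPM with dox in batch 2, against 9.12 and 10.4 CPM without. It fell by 5.93 ± 0.44 (log2, edgeR adjusted p = 3.58e-08) at 24 h and by 3.65 ± 0.53 (0.000386) at 12 h. Thus it was lower at 24 h than at 12 h with dox, whereas Lypd6 was not. Lypd6b was taken from a list chosen with results of these data known, so the adjusted p-values given for it are a description. In double positive replicates 3 to 5 it gave 0.395, 0.150 and 0.660 CPM, against 7.40, 6.72 and 8.14 CPM in double negative cells (-4.17 ± 0.38, edgeR adjusted p = 0.000378). Lypd6 in the same double positive libraries was at 4.94 to 17.8 CPM, and a test of the difference between the pair was not made.

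**Figure D5:**
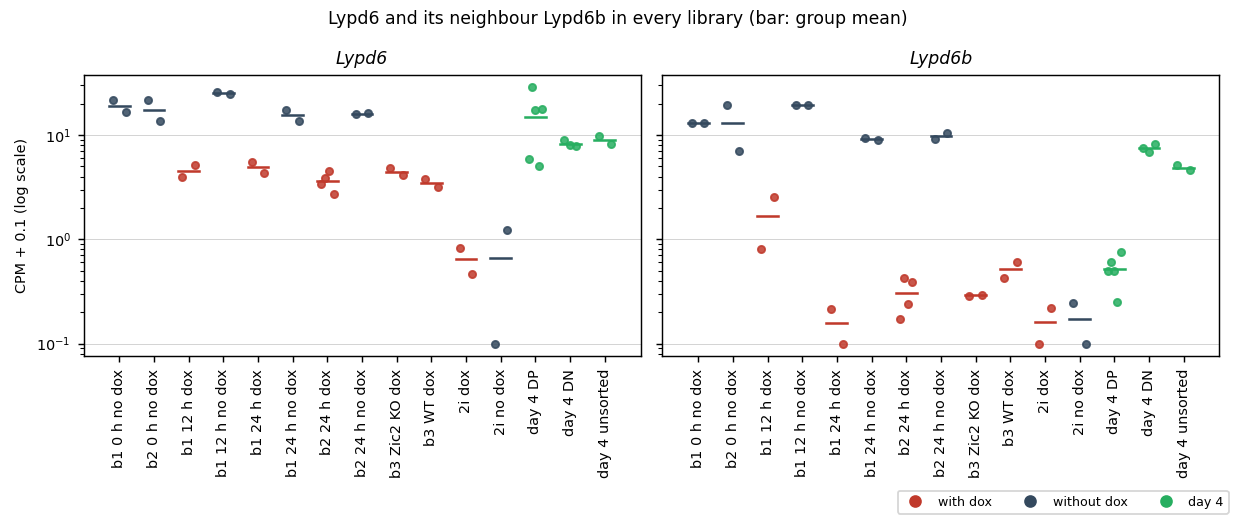
CPM + 0.1 (log axis) of Lypd6 and its relative Lypd6b in all 36 libraries by group, with group labels as b1 to b3 for the batches, DP double positive and DN double negative, and bars for group means. Both are lower in dox than in no dox libraries at 12 h and 24 h, while in double positive libraries Lypd6b is at 0.150 to 0.660 CPM and Lypd6 at 4.94 to 28.6 CPM.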

How the data were processed

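Read counts per Ensembl gene, as deposited, were made by the authors with Trimmomatic, STAR, HTSeq and DESeq2 on mm10, per the submitters' processing notes. Not given in the sources used here are tool versions, the annotation and whether counting was by strand. Reads assigned to no gene were left out (3.52% to 10.1% of each library). Symbols and coordinates came from GENCODE M21 (GRCm38), promoters from RefSeq (GRCm38.p6), which held all 6 genes.

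The genes, pathway lists and marker lists were chosen with earlier results of these data known. The genes named are the 6 members, checks of the labels, the 3 genes most correlated with each member, and the largest called changes of each list, of which 1 gene is not reported here. Hus1 and Lypd6b values by library were added after they were seen.

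Each comparison was fitted on its own libraries with edgeR 4.0.16 in R 4.3.3 (filterByExpr, TMM, 2-sided quasi-likelihood test, robust) and adjusted over all genes by the Benjamini-Hochberg method. Batches 1 and 2 shared a fit that had a batch term. A call is an adjusted p below 0.05. P-values measure only the spread between these libraries, which may be technical. The edgeR steps were tested on simulated counts, where calls had the right direction but unchanged genes made up more of the calls than the 0.05 threshold allows in all 4 comparisons, and few of the small changes were recovered in 2i. Adjusted p-values close to the threshold are therefore less firm than stated. In every set of same-group libraries the variance was, averaged over genes, at least 4.47 times that of counting alone. Double positive and double negative libraries of the same number deviated together (r = 0.43, 0.57 and 0.53 for replicates 3, 4 and 5), so the numbers were taken to pair them. Alternatives were other scaling, no filter, DESeq2 1.42.0, a replicate block, single batches and leaving out each library. A planned comparison of protein sequences is not reported here.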

Additional observations from a re-analysis of the deposited data

Results flagged for a closer look

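Foxi3 was higher in both dox libraries of 2i cells than in both libraries without dox, with a ratio of mean CPM of 2.51, whereas in differentiating cells it was lower in every dox library at 12 h of batch 1 and at 24 h of batches 1 and 2. Of all genes tested in 2i, 16.5% were higher in both dox libraries than in both others. The nearest Foxi3 libraries were at 1.14 CPM with dox and 1.09 CPM without. The direction in 2i rests on 43 and 19 counts with dox and 15 and 5 counts without, in libraries of unequal depth. Its log2 value in 2i, 1.31, was 0.55 to 2.67 without single libraries. The difference between the 2i and the differentiating cells was not tested. In groups of 4 to 10 libraries, no CPM of the 6 genes lay far enough from its nearest neighbour, relative to the range of its group, to pass Dixon's 95% critical value. That includes 24 h dox replicate 1 of batch 2, which was the lowest of its 4 libraries for 4 genes and the highest for Upp1.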

How the results depend on the processing

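Eras, Slc27a2, Trim67 and Foxi3 remained called in both day 4 comparisons under all alternatives run (for Eras over double negative at -6.97 to -4.63, for Foxi3 over unsorted at -9.47 to -5.19). All 6 genes kept the direction of their dox differences at 12 h and 24 h. Their choice from these same libraries implies this, and nothing is read from it. In 2i, edgeR called 18 genes without the low-count filter and 0 to 2 without single libraries, and DESeq2 called 46. With a replicate block it called 633, among them Eras (-0.95, edgeR adjusted p = 0.0295) and Upp1 (-0.86, edgeR adjusted p = 4.06e-05). Same-numbered 2i libraries deviated together (r = 0.83), but 2 pairs do not settle the pairing. Leaving out single libraries moved the 2i log2 values of Slc27a2 from -0.56 to 0.21, of Foxi3 from 0.55 to 2.67 and of Lypd6 from -1.05 to 6.18. For the libraries labelled Zic2 knockout, DESeq2 called 5 genes and leaving out single libraries gave 0 to 9, with Eras at -0.021 to 1.05, Upp1 at -0.45 to 0.25 and Trim67 at -0.37 to 4.91.

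Double positive over double negative gave 7254 genes with the replicate block in place of 4318, and Upp1 at -0.41 then passed. Without single libraries Upp1 ran from -1.26 to 0.43, where 0.43 was the value without double negative replicate 4, and Lypd6 from 0.47 to 1.13. Double positive over unsorted gave 4903 to 12394 genes without single libraries in place of 10010, with Upp1 at -2.52 to -1.09 and Lypd6 at -0.43 to 1.81. The Upp1 call there was also lost without the filter (-1.7), with the replicate block (-1.79) and with double positive replicates 3 to 5 (-1.73), an alternative chosen after seeing the data. Same-numbered libraries of this comparison deviated in opposite directions (r = -0.15), and a crossed replicate block, added after seeing the data, called 9458 genes. No other call of the 6 genes was changed by a replicate block, and the causes were not tested. Depth limits Foxi3 in double positive cells and Trim67 in 2i, which had 0 to 1 and 1 to 4 counts per library.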
